A study of Rattus norvegicus with 12 samples.

Results

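Of 12 subcutaneous C6 tumors, the 6 with the most skeletal muscle RNA were compared with the 6 with the least. C6 is a rat glioma cell line, and its cells were inoculated into the left flank of athymic female nude mice (SWISS nu+/nu+), whose age was not given in the labels. Mice received intraperitoneal MNF, or (R,R')-4-methoxy-1-naphthylfenoterol, at 2 mg/kg, or the vehicle alone, which was 100 µM ascorbic acid in saline, on 5 days of each week for 19 days from 3 days after inoculation. RNA of 6 MNF-treated and 6 vehicle-treated tumors, with 3 of each in each of 2 cohorts of mice, was hybridized to Illumina rat arrays.

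The sets were chosen by measured values and not by the labels. For each array the log2 signal of every probe was taken minus the mean over all 22517 probes, and a muscle score was the mean of Acta1, Myl1 and Tnnc2 on that scale. The high-muscle set held 4 MNF-treated tumors (replicates 1, 4, 5 and 6) and 2 vehicle-treated tumors (replicates 5 and 6). The low-muscle set held 2 MNF-treated tumors (replicates 2 and 3) and 4 vehicle-treated tumors (replicates 1 to 4). The sets nearly followed the cohorts: 5 of the 6 high-muscle tumors came from cohort 2, and 5 of the 6 low-muscle tumors came from cohort 1. MNF replicate 1 was the only high-muscle tumor of cohort 1, and vehicle replicate 4 was the only low-muscle tumor of cohort 2, so that set and cohort could be separated only through these 2 arrays. The arrays carry rat probes and the host was a mouse, and rat and mouse transcripts cannot be told apart here. In bulk tumor RNA, fewer cells of a type and less RNA per cell cannot be told apart either.

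A skeletal muscle fiber contracts when calcium binds troponin on its actin filaments and lets myosin pull on them, and it draws on creatine phosphate, glycogen and mitochondria for energy. Fast and slow fibers use different versions of many of these proteins. A flank tumor lies against the skin and the muscle of the body wall. Hypoxic cells induce angiogenic factors and glycolytic enzymes through hypoxia-inducible factors, and cells short of amino acids or with misfolded proteins in the endoplasmic reticulum induce Atf4 and its targets in the integrated stress response.

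The promoters of the 3 score genes are shown because these genes chose the sets, and those of Pdk1, P4ha1 and Eno2 as examples of metabolic genes that hold a hypoxia motif. The last 3 were picked after their values and matches were seen, and of them only Eno2 passed the adjusted threshold in the comparison of the sets. The sequences are from RefSeq on the rat build GRCr8 and run from 250 bases before the transcription start to 50 bases after it. They lie at chr19:68784145-68784444, minus strand, for Acta1, at chr9:75907647-75907946, minus strand, for Myl1, at chr3:173935290-173935589, minus strand, for Tnnc2, at chr3:77113264-77113563, plus strand, for Pdk1, at chr20:27844796-27845095, plus strand, for P4ha1, and at chr4:159267171-159267470, minus strand, for Eno2. Capitals mark CANNTG, the E-box to which myogenic factors bind, in the score genes, and ACGTG or its reverse complement CACGT, the core of the hypoxia response element, in the other genes.
Acta1: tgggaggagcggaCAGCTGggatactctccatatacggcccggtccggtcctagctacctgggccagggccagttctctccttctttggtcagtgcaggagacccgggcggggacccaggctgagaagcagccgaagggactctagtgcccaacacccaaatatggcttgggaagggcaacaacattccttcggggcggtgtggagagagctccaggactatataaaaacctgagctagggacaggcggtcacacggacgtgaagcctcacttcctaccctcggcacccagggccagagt
Myl1: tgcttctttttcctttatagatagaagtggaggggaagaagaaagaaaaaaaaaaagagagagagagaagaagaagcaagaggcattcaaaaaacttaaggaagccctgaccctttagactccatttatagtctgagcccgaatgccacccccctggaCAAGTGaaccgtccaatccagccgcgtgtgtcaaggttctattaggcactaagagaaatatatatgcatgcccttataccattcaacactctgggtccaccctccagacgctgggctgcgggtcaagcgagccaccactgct
Tnnc2: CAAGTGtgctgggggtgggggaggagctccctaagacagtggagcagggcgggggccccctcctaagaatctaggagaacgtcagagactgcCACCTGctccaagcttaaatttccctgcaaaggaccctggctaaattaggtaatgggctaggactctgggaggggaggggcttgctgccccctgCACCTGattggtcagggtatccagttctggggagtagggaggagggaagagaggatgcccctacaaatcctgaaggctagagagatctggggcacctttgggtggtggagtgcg
Pdk1: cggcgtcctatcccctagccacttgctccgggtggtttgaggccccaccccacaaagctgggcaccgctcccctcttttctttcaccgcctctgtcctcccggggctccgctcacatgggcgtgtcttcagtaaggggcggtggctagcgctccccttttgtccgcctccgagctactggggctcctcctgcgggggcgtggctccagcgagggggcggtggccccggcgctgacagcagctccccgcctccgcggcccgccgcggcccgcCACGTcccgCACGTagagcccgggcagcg
P4ha1: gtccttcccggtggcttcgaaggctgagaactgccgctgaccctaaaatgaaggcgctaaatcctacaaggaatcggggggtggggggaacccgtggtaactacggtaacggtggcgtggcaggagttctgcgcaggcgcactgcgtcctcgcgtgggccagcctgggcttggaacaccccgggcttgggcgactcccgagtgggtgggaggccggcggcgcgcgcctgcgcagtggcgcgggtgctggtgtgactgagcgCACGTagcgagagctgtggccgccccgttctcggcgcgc
Eno2: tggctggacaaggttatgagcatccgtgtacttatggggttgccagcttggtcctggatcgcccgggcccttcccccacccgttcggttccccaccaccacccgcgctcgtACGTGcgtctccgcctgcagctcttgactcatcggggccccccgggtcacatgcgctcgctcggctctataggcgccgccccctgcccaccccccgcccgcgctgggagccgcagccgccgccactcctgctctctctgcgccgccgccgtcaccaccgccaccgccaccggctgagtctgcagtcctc
Of 88 promoters found for the 112 muscle genes on the array, 72 (81.8%) held CANNTG, against 71.6% of 27457 promoters of all genes in the table. The form CAGCTG, a subset of CANNTG, was found in 31 of the 88 (35.2%), against 15.1% of all promoters. Of 21 promoters found for the 24 genes of glycolysis and hypoxia that were tested, 12 (57.1%) held ACGTG on either strand, against 27.6% of 4681 promoters of tested genes. Of the 22 genes and unnamed probes called lower in the high-muscle tumors, 17 had a promoter found, and 6 of these (35.3%) held ACGTG. The match CACGTG would be counted under both ACGTG and CANNTG. These matches describe letters in the window and were not tested as binding sites.

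The score ran over a continuous range. Acta1 encodes the actin of skeletal muscle, Myl1 a light chain of fast myosin and Tnnc2 the calcium-binding subunit of fast troponin. In the high-muscle tumors the score was 3.50 at the lowest, 5.51 at the median and 6.93 at the highest, and in the low-muscle tumors it was -0.17, 0.99 and 2.31. The tumor just inside the limit was MNF replicate 1 at 3.50 and the tumor just outside was MNF replicate 3 at 2.31. The gap of 1.19 between them was smaller than the largest gap in the order, 1.63, which lay between the 5 high-muscle tumors of cohort 2 and MNF replicate 1.

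The raw signals showed how far the tumors differed. Acta1 had signals of 5842 at the lowest and 34205 at the highest in the high-muscle tumors, against 278 and 2887 in the low-muscle tumors. Tnnc2 had 1578 and 27906 in the high-muscle tumors, against 205 and 788 in the low-muscle tumors. Between the highest and the lowest array Acta1 differed 123-fold, Myl1 99.0-fold and Tnnc2 136-fold, and all 3 were detected on all 12 arrays. On the log2 scale Acta1 was at 6.73 to 7.27 in the 5 high-muscle tumors of cohort 2, while Tnnc2 ranged from 4.56 to 7.02 in the same tumors. The probes of these 3 genes took 0.0752% to 0.577% of the summed signal in the high-muscle tumors and 0.00345% to 0.0272% in the low-muscle tumors.

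**Figure D1:**
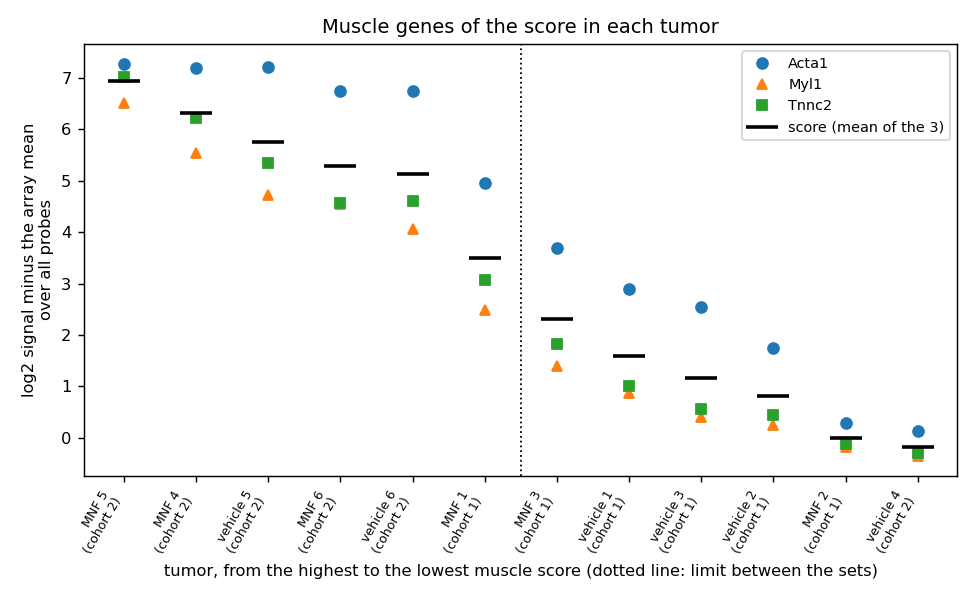
Log2 signal minus the array mean over all probes of Acta1, Myl1 and Tnnc2 in each tumor (points), with their mean, the muscle score (black bars); tumors run from the highest to the lowest score and the dotted line divides the sets. MNF replicate 1, at 3.50, lies between the 5 high-muscle tumors of cohort 2 and the low-muscle tumors.

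Many other genes of fast muscle followed the same order. Of 139 genes in 5 muscle lists besides the score genes, 109 had a named probe, and 14 of these (12.8%) were higher in every high-muscle tumor than in every low-muscle tumor, against 0.378% of all 12978 named genes on the array. None was lower in every high-muscle tumor. In all, 29 of the 109 (26.6%) were detected in at least 1 high-muscle tumor and in no low-muscle tumor, against 3.37% of all named genes. These counts are a description of what the score selected and were not tested.

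Ckm, the creatine kinase of muscle, was at 2.11 (lowest), 3.99 (median) and 6.80 (highest) in the high-muscle tumors and at -0.88, -0.83 and 0.67 in the low-muscle tumors, as log2 signal minus the array mean. Tnnt3, the fast troponin that binds tropomyosin, was at 2.03, 3.67 and 6.59 in the high-muscle tumors and at -0.76, -0.26 and 0.66 in the low-muscle tumors. Tnni2, the inhibitory subunit of fast troponin, was at 1.83, 3.35 and 6.23 in the high-muscle tumors and at -0.79, -0.52 and 0.49 in the low-muscle tumors. The sets did not overlap for any of these genes, and MNF replicate 1 was the lowest of the high-muscle tumors each time. Pygm, the glycogen phosphorylase of muscle, was at 0.72, 2.28 and 5.63 in the high-muscle tumors and at -0.84, -0.66 and -0.039 in the low-muscle tumors. Actn2, an actinin of the Z-disc, was at 0.90, 2.71 and 4.41 in the high-muscle tumors and at -0.98, -0.57 and -0.26 in the low-muscle tumors. Across the 12 tumors, which share the array scale, Pearson's r with the score was 0.98 for Ckm, Tnnt3 and Actn2, 0.97 for Tnni2 and 0.94 for Pygm. In the low-muscle tumors Ckm and Pygm were detected on 2 of 6 arrays and Tnnt3 and Tnni2 on 4 of 6.

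Among dimmer muscle genes, Cox8b, Myoz1 and Tnnt1 were highest in MNF replicates 5 and 4, the tumors with the highest scores. Cox8b, a subunit of cytochrome oxidase of heart and muscle, was at -0.11, 0.088 and 2.32 in the high-muscle tumors and at -0.88, -0.77 and -0.62 in the low-muscle tumors, where it was detected on 0 of 6 arrays. Myoz1, a Z-disc protein of fast fibers, was at -0.51, -0.10 and 2.61 in the high-muscle tumors and at -1.03, -0.84 and -0.76 in the low-muscle tumors. Tnnt1, the troponin of slow fibers, was at -0.39, -0.29 and 0.62 in the high-muscle tumors and at -0.81, -0.73 and -0.57 in the low-muscle tumors. Other dim genes had another order, and Csrp3, a Z-disc protein, and Myog, a myogenic factor, were highest in vehicle replicate 5, at 0.38 and -0.29. Levels of 0 and below lie near the limit of detection, so that differences there understate any change.

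The muscle lists were not uniform. Of the 12 muscle-list genes with the brightest mean signal in the high-muscle tumors, only the 5 described above had sets that did not overlap. The other 7 were bright in all 12 tumors: Slc25a4, Cryab, Atp2a2, Tpm1, Pdlim7, Hspb8 and Ldhb differed by -0.29 (Pdlim7) to 0.093 (Atp2a2) between the sets. The slow myosin Myh7, the slow troponin Tnni1, myoglobin (Mb) and the fast myosin Myh4 were detected on none of the 12 arrays. Among the regulators, the satellite cell factor Pax7 and the myogenic factor Myf5 were detected on none, Myog on 2 high-muscle arrays and Myod1 on 1 low-muscle array. In MNF replicate 5, where Ckm had a signal of 23964, Mb had 104.5 and Myh4 103.8. Whether each rat probe reads the mouse transcript was not tested, so that a gene not detected here cannot be called absent from the muscle.

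**Figure D2:**
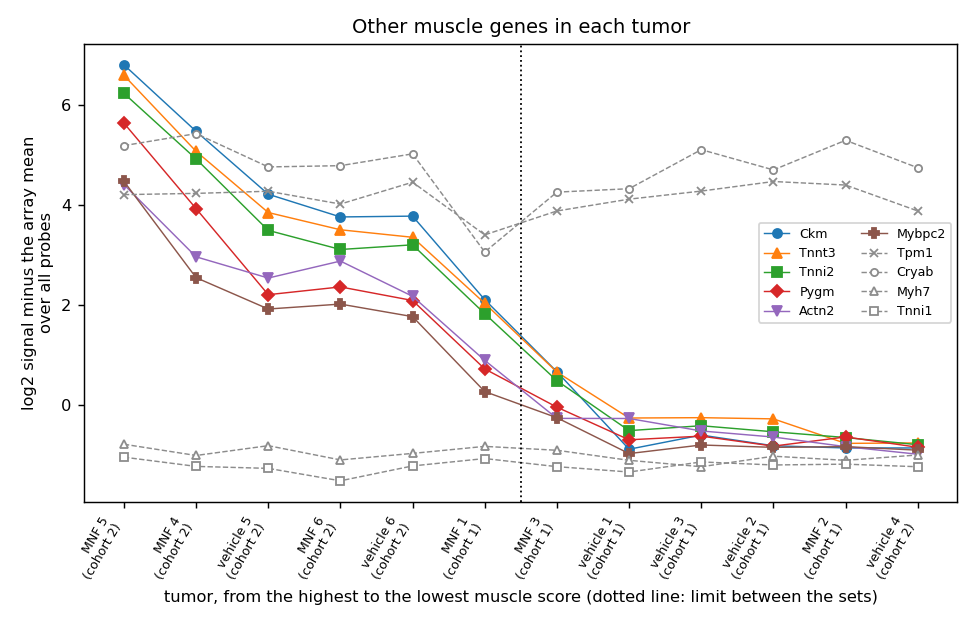
Log2 signal minus the array mean over all probes of 10 muscle genes in each tumor, from the highest to the lowest muscle score. Ckm, Tnnt3, Tnni2, Pygm, Actn2 and Mybpc2 (colors) fall with the score, while Tpm1 and Cryab are bright and Myh7 and Tnni1 are near background in all tumors (grey).

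The score subtracts each array's mean log2 signal, so that a uniform factor of brightness cancels in it. Since the array's mean level entered the score, mean signal is given as a description. Mean signal was 699 ± 124 in the high-muscle tumors and 851 ± 127 in the low-muscle tumors (SD, n = 6 each, difference -152). The number of probes detected was 9197 ± 297 in the high-muscle tumors and 9099 ± 217 in the low-muscle tumors (exact permutation test within treatment, two-sided, p = 0.516, where 225 arrangements allow a smallest p of 0.00444). MNF replicate 1 had the lowest mean signal, 500, and the narrowest spread of log2 signals, with an SD of 1.39 against 1.52 to 1.70 on the other arrays. Results are therefore also given without it.

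Genes outside the muscle program were compared with limma, with treatment as a covariate. A probe was kept where its detection p was under 0.02 on all 12 arrays, and with 1 probe per gene and the score genes left out, 7617 genes and unnamed probes were tested. Levels are from here on Z-normalized log2 signals, on which 0 is the array's mean over the kept probes. On this scale the score genes had a mean of -1.92 in vehicle replicate 4, at signals of 198 to 278. Levels near -2 were therefore dim, although every tested probe was detected on all 12 arrays. After Benjamini-Hochberg adjustment at 0.05, 4 genes were higher in the high-muscle tumors (0.0525%) and 22 were lower (0.289%). At an unadjusted p under 0.05, 499 (6.55%) were higher and 635 (8.34%) were lower. The split depended on the scaling: the calls were 1 higher and 55 lower (98.2% lower, against 84.6%) when arrays were only centred on their mean over all probes. Every high-muscle tumor lay above every low-muscle tumor for 49 genes (0.643%) and below for 66 (0.866%), and 12 of the 26 called genes were among these. Only 15 genes of the muscle lists passed the detection filter, which removes genes that are seen in 1 set only, and none of them was called. The median change of all genes was 0.0042 on the log2 scale.

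These calls were fragile, and cohort and set could not be fully separated. With cohort as a second covariate no gene was called by limma (smallest adjusted p = 0.124), with 529 genes higher and 540 lower at an unadjusted p under 0.05. All 26 called genes kept their direction in that fit and had an unadjusted p under 0.05, and the median of their change with cohort over that without was 0.951. Fits within 1 cohort kept treatment as a covariate. Within cohort 1 all vehicle-treated tumors were low-muscle, so the change there was MNF replicate 1 minus MNF replicates 2 and 3. Within cohort 2 all MNF-treated tumors were high-muscle, so the change there was vehicle replicates 5 and 6 minus vehicle replicate 4. All 26 genes also kept their direction in both of these fits. None of the 26 was among the 65 calls within cohort 1 or the 1 call within cohort 2. The lone tumor was there assumed to vary like the others, and these arrays had also entered the selection of the 26 genes. In this design the change with cohort as a covariate is the mean of the changes within the cohorts. The fit with cohort and the within-cohort fits are therefore not independent of each other. No gene was called without MNF replicate 3 or 6 or without vehicle replicate 2, 4, 5 or 6. Without MNF replicate 2 there were 2 calls, without MNF replicate 4 there were 4 and without vehicle replicate 1 there were 17, while without MNF replicate 1 there were 121 and without vehicle replicate 3 there were 79. All 26 genes kept their direction in each of these fits. With the replicate number as a block no gene was called by limma, with 163 higher and 182 lower at an unadjusted p under 0.05. Each replicate number lay within 1 cohort, so that this block also adjusts for cohort.

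The glycolysis and hypoxia list held 3 of the genes called lower in the high-muscle tumors, Vegfa, Hk2 and Eno2. Of 41 listed genes 24 were tested, of which 22 had a change below 0, 3 were called lower and none was called higher, against 0.289% and 0.0525% of all genes. At an unadjusted p under 0.05, 16 of the 24 (66.7%) were lower and 0 were higher, against 8.34% and 6.55% of all genes. The median change was -0.44, against 0.0042 for all genes.

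Vegfa, the main angiogenic growth factor, was at -0.69 (lowest), -0.18 (median) and 0.49 (highest) in the high-muscle tumors and at 0.19, 1.15 and 1.59 in the low-muscle tumors. It fell by 1.29 on the log2 scale (standard error 0.23, limma adjusted p = 0.0418), and the sets overlapped through MNF replicates 1 and 5 and vehicle replicate 1. Vehicle replicate 4, the low-muscle tumor of cohort 2, stood at 1.36, above all 5 high-muscle tumors of its cohort. Hk2, the hexokinase that commits glucose to glycolysis in many tumors, was at -1.15, -0.65 and 0.024 in the high-muscle tumors and at -0.17, 0.19 and 0.47 in the low-muscle tumors, a change of -0.88 (standard error 0.17, adjusted p = 0.0438). Eno2, a glycolytic enolase, was at 0.73, 1.13 and 1.75 in the high-muscle tumors and at 1.61, 1.75 and 2.19 in the low-muscle tumors, a change of -0.74 (standard error 0.14, adjusted p = 0.0418). For both the sets overlapped. When cohort was added the changes were -1.35 for Vegfa, -1.01 for Hk2 and -0.57 for Eno2, with unadjusted p of 0.0018, 0.0012 and 0.011.

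P4ha1, a subunit of the prolyl hydroxylase of collagen, missed the threshold with a change of -0.60 (adjusted p = 0.0516), although every high-muscle tumor, at 2.06 to 2.60, lay below every low-muscle tumor, at 2.62 to 3.29. Pdk1, a kinase that turns pyruvate away from the mitochondria, was listed with the citric acid cycle and had a change of -0.83 (adjusted p = 0.0516). Apln, the secreted ligand apelin that acts on blood vessels, was in no list and was called. It was at -0.38, 0.14 and 0.51 in the high-muscle tumors and at 0.56, 1.02 and 1.23 in the low-muscle tumors, with no overlap (change -0.90, standard error 0.16, adjusted p = 0.0408). Siah2, a ubiquitin ligase, was also called with no overlap, at -0.84 to -0.54 in the high-muscle tumors and -0.33 to -0.072 in the low-muscle tumors (change -0.47, adjusted p = 0.0408).

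The shift of the list differed between the within-cohort fits, in each of which 1 tumor stood against 2 of the same treatment. The list's median change was -0.046 within cohort 1, with 13 of 24 genes below 0, and -0.80 within cohort 2, with 20 of 24 below 0. The mean of the 24 genes, each taken minus its own mean over the 12 tumors, was -0.47, -0.34 and 0.25 (lowest, median and highest) in the high-muscle tumors and -0.024, 0.18 and 0.39 in the low-muscle tumors. MNF replicate 1 stood at 0.25 and MNF replicate 5, the tumor with the highest muscle score, at 0.22, both among the low-muscle tumors. Vehicle replicate 4 stood at 0.30. With cohort as a covariate the median was -0.47, with 11 of 24 lower at an unadjusted p under 0.05. It was -0.31 in the MNF-treated tumors and -0.53 in the vehicle-treated tumors.

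**Figure D3:**
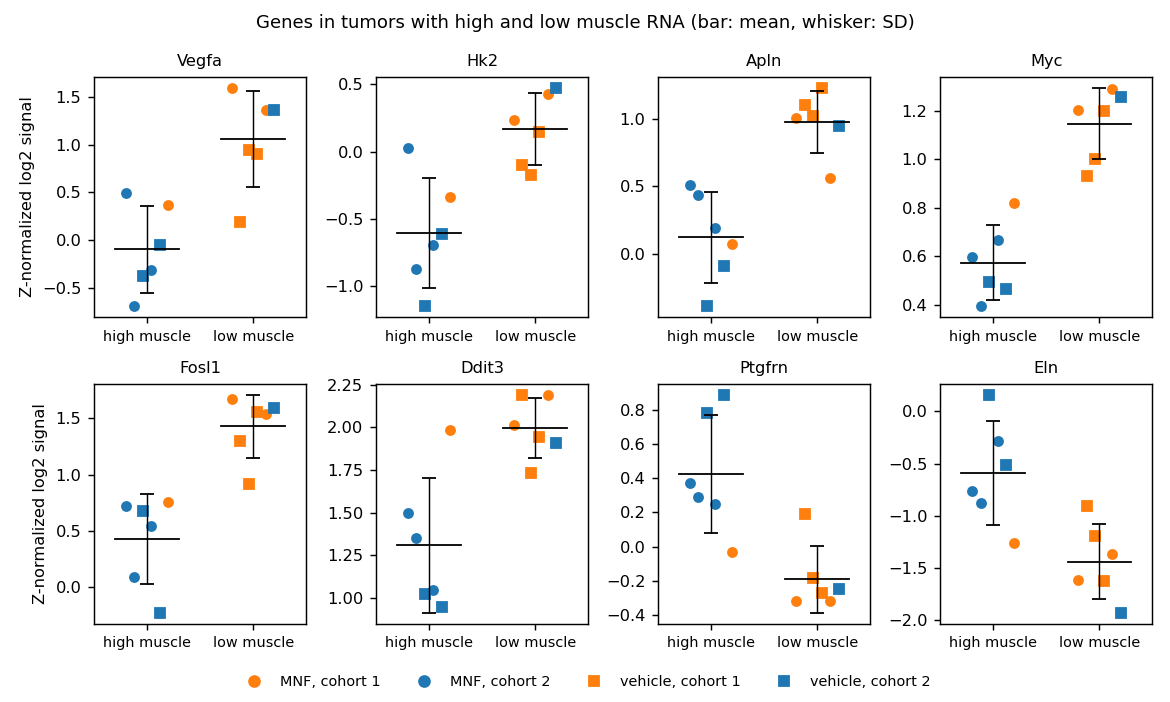
Z-normalized log2 signal of 8 genes in the 6 high-muscle and 6 low-muscle tumors; circles are MNF-treated and squares vehicle-treated tumors, orange is cohort 1 and blue cohort 2, bars are means and whiskers SDs. Vegfa, Hk2, Apln, Myc, Fosl1 and Ddit3 were lower and Ptgfrn was higher in the high-muscle tumors, while Eln did not pass the adjusted threshold.

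The integrated stress response list held 3 of the genes called lower. Of 29 listed genes 19 were tested, of which 18 had a change below 0, 3 were called lower, against 0.289% of all genes, and 9 (47.4%) were lower at an unadjusted p under 0.05, with 0 higher, against 8.34% and 6.55% of all genes. The median change was -0.33. None was called with cohort as a covariate (limma), where 6 were lower at an unadjusted p under 0.05. Ddit3, a transcription factor that promotes death of stressed cells, was at 0.95, 1.20 and 1.98 in the high-muscle tumors and at 1.73, 1.98 and 2.19 in the low-muscle tumors (change -0.79, standard error 0.15, limma adjusted p = 0.0418). The sets overlapped through MNF replicate 1 alone, which was at 1.98. Slc3a2, the heavy chain of amino acid transporters, was at 2.85 to 3.20 in the high-muscle tumors and 3.33 to 3.53 in the low-muscle tumors, with no overlap (change -0.45, adjusted p = 0.0418). Gdf15, a secreted stress cytokine, had a change of -0.69 (adjusted p = 0.0418). Atf4, the transcription factor at the center of the pathway, had a change of -0.65 that missed the threshold (adjusted p = 0.0516).

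The list's median was -0.089 within cohort 1, with 10 of 19 genes below 0, and -0.53 within cohort 2, with 17 below 0. When cohort was added it was -0.25. Genes of endoplasmic reticulum stress had a median of -0.21, with 1 of 18 called lower and 4 (22.2%) lower at an unadjusted p under 0.05, against 0.289% and 8.34% of all genes. When cohort was added the median was 0.021, with 8 below 0. The called gene was Ppp1r15a, the subunit that directs a phosphatase to eIF2, with a change of -0.45 (adjusted p = 0.0418) and overlapping sets. Xbp1, the factor spliced when proteins misfold there, had a change of -0.35 (adjusted p = 0.231).

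Immediate early genes, which respond quickly to growth factors, included Myc and Fosl1. Of 23 tested of 35 listed, 2 were called lower, against 0.289% of all genes. At an unadjusted p under 0.05, 8 (34.8%) were lower and 2 (8.70%) higher, against 8.34% and 6.55% of all genes, with a median of -0.29. Myc, a driver of growth and proliferation, was at 0.39, 0.54 and 0.82 in the high-muscle tumors and at 0.93, 1.20 and 1.29 in the low-muscle tumors. The sets did not overlap (change -0.62, standard error 0.10, limma adjusted p = 0.0343). Fosl1, a subunit of AP-1, was at -0.22, 0.61 and 0.76 in the high-muscle tumors and at 0.92, 1.55 and 1.68 in the low-muscle tumors, again with no overlap (change -1.10, standard error 0.18, adjusted p = 0.0343). Vehicle replicate 4 was at 1.26 for Myc and 1.59 for Fosl1, with the low-muscle tumors of the other cohort. Klf6 and Maff, transcription factors of the same list, had changes of -0.46 (adjusted p = 0.0637) and -0.57 (adjusted p = 0.0888). Errfi1, an inhibitor of the EGF receptor that is not in the list, was at -0.38 to 0.55 in the high-muscle tumors and 0.76 to 1.22 in the low-muscle tumors (change -0.85, adjusted p = 0.0408).

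The list as a whole moved less evenly than these genes. Its median was -0.48 in the MNF-treated tumors and -0.018 in the vehicle-treated tumors, and -0.29 within cohort 1 and -0.048 within cohort 2. No gene passed a test of the difference between the treatments in the high-minus-low change (limma interaction, smallest adjusted p = 0.999, 200 genes at an unadjusted p under 0.05).

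**Figure D4:**
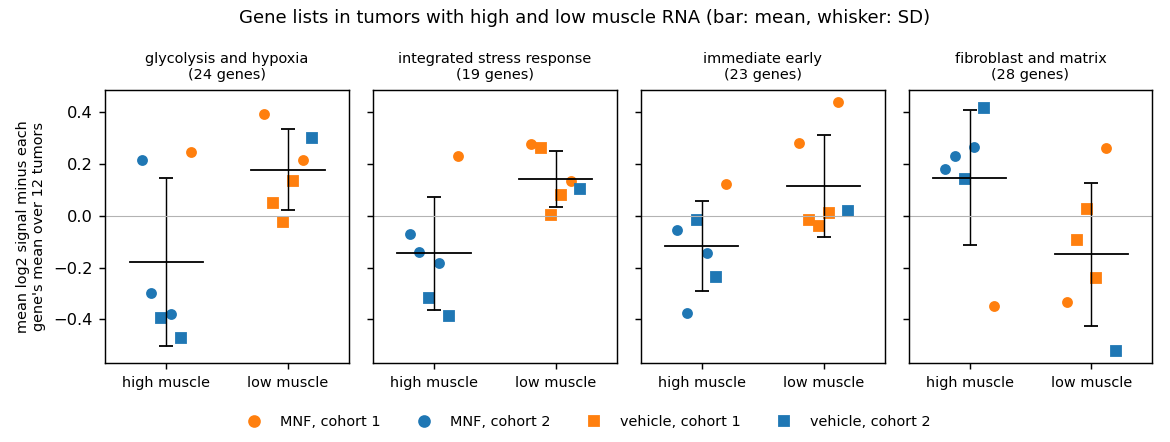
Mean over the tested genes of 4 lists of the Z-normalized log2 signal minus each gene's mean over the 12 tumors, in the high-muscle and low-muscle tumors; symbols and colors mark treatment and cohort, bars are means and whiskers SDs. MNF replicate 1, the orange circle among the high-muscle tumors, lies at 0.25 for glycolysis and hypoxia and at -0.35 for fibroblast and matrix genes, apart from most of its set. MNF replicate 5, of cohort 2, lies at 0.22 for glycolysis and hypoxia, also among the low-muscle tumors.

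The other genes called lower belonged to no list. C1galt1, the galactosyltransferase that extends O-linked glycans, had the smallest p. It was at -1.94, -1.67 and -1.31 in the high-muscle tumors and at -1.40, -0.85 and -0.54 in the low-muscle tumors (change -0.91, standard error 0.13, limma adjusted p = 0.0343), with an overlap between MNF replicate 1 and vehicle replicate 3. Noct, a phosphatase with a daily rhythm, had a change of -1.03, Dnajc5, a chaperone of synaptic vesicles, -0.74, and Prkab2, a subunit of AMP-activated kinase, -0.84 (adjusted p = 0.0408 each). Rnf217, a ubiquitin ligase, had a change of -0.78 with no overlap, at -0.35 to 0.16 in the high-muscle tumors and 0.28 to 1.13 in the low-muscle tumors (adjusted p = 0.0418). Msantd3, named after its values were seen because it completed the 18 named genes called lower, had a change of -0.45 (adjusted p = 0.0418). The other 4 of the 22 were unnamed probes.

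Of the 4 probes called higher in the high-muscle tumors 3 were named. Ptgfrn, a membrane protein of the immunoglobulin family, was at -0.034, 0.33 and 0.89 in the high-muscle tumors and at -0.32, -0.26 and 0.19 in the low-muscle tumors (change 0.75, standard error 0.12, limma adjusted p = 0.0343). Spn, a sialoglycoprotein of leukocytes, was at 1.23, 1.70 and 2.20 in the high-muscle tumors and at 0.88, 1.35 and 1.58 in the low-muscle tumors (change 0.64, adjusted p = 0.0418). Slc4a2, an anion exchanger, was at 0.28 to 0.49 in the high-muscle tumors and -0.34 to 0.09 in the low-muscle tumors, with no overlap (change 0.49, adjusted p = 0.0496). For Ptgfrn the sets overlapped through vehicle replicate 1, and for Spn MNF replicates 1, 4 and 5 lay below vehicle replicate 4, the highest low-muscle tumor at 1.58.

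The next genes by p lay just beyond the threshold. Casp2, a caspase, Sertad4, a nuclear protein, and Trrap, a scaffold of histone acetyltransferases, showed no overlap, with changes of 0.46, 0.88 and 0.37 (limma adjusted p of 0.0516, 0.0516 and 0.0524). Pxylp1, a phosphatase of proteoglycan synthesis, Lpcat1, an acyltransferase of phospholipids, Oplah, an enzyme of the glutathione cycle, and Alms1, a protein of the centrosome, had changes of 0.59, 0.66, 0.52 and 0.41 with overlapping sets. Chchd10, a mitochondrial protein abundant in skeletal muscle and in none of the muscle lists, was at -1.26, -0.37 and 1.68 in the high-muscle tumors and at -2.25, -2.12 and -1.79 in the low-muscle tumors (change 1.68, adjusted p = 0.0593). Its sets did not overlap, and its highest value was in MNF replicate 5, the tumor with the highest muscle score.

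No fibroblast or matrix gene was called by limma. Of 43 listed genes 28 were tested, of which 23 had a change above 0, against 51.1% of all genes, and 8 (28.6%) were higher at an unadjusted p under 0.05, against 6.55% of all genes, with 0 lower and a median of 0.34. Eln, which encodes elastin, was at -1.26, -0.64 and 0.16 in the high-muscle tumors and at -1.93, -1.49 and -0.90 in the low-muscle tumors (change 0.96, limma adjusted p = 0.0577). C1s, C1r and Serpinf1, secreted by fibroblasts among other cells, had changes of 0.76, 0.34 and 0.55 (adjusted p of 0.0802, 0.183 and 0.0888). The list's direction was not the same in the cohorts: its median was -0.32 within cohort 1, with 18 of 28 genes below 0, and 0.76 within cohort 2, with 2 below 0. With cohort as a covariate it was 0.15, and without MNF replicate 1 it was 0.37, with 15 of 28 higher at an unadjusted p under 0.05.

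Of 22 markers of endothelium 5 were tested, with a median change of 0.099 and 2 (40.0%) higher at an unadjusted p under 0.05, against 6.55% of all genes, and none called. Esam, Cldn5 and Plvap, of endothelial junctions and membranes, had changes of 0.099, 0.044 and -0.18. Aqp1, a water channel, lay at 2.50 to 3.18 in the high-muscle tumors and 1.33 to 2.31 in the low-muscle tumors (change 0.79, limma adjusted p = 0.0802). Ramp2, a receptor subunit of vessels, had a change of 0.81 (adjusted p = 0.293), and of -0.12 within cohort 1. Of 18 markers of tendon, nerve and Schwann cells 8 were tested, with a median change of -0.041, 4 below 0 and 1 higher at an unadjusted p under 0.05. That gene, Thbs4, a matrix protein of tendon and muscle, had a change of 1.71 (adjusted p = 0.116), 3.11 within cohort 2 and -0.041 within cohort 1. Summed raw signals, not scaled between arrays, of the marker lists of smooth muscle, adipocytes, keratinocytes, macrophages and red blood cells overlapped between the sets. For the 28 macrophage markers on the array they were 7440 to 14877 in the high-muscle tumors and 9937 to 19387 in the low-muscle tumors. For the 12 keratinocyte markers on the array they were 3935 to 14513 in the high-muscle tumors and 4764 to 9456 in the low-muscle tumors. No marker of neutrophils and lymphocytes was detected on all 12 arrays, and 22 of 28 were detected on none.

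Genes of sterol synthesis had a median of 0.20, with 5 of 17 (29.4%) higher and 0 lower at an unadjusted p under 0.05, against 6.55% and 8.34% of all genes, and none called. Without MNF replicate 1, 9 of 17 were higher. Fdps and Mvd, enzymes of the mevalonate pathway, had changes of 0.38 and 0.41 (limma adjusted p of 0.114 and 0.154), and Srebf2, the transcription factor that drives the pathway, and Tm7sf2, a sterol reductase, had 0.34 and 0.36 (adjusted p of 0.169 and 0.258). Interferon and MHC genes had a median of 0.14, with 1 of 20 higher at an unadjusted p under 0.05. With cohort as a covariate the median was 0.51 with 11 of 20 higher, and without MNF replicate 1 it was 0.060. The mean of these genes, each taken minus its own mean over the 12 tumors, had its highest value, 0.86, in MNF replicate 1, and the high-muscle tumors had a median of -0.038, against -0.095 in the low-muscle tumors.

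Hspb1, a small heat shock protein of muscle and stressed cells, had the largest change of all genes tested. It was at 0.32, 1.44 and 3.34 in the high-muscle tumors and at -1.84, -0.88 and 0.44 in the low-muscle tumors (change 2.19, standard error 0.55, limma adjusted p = 0.0834), with 3.46 within cohort 1 and 2.94 within cohort 2. The highest value was that of MNF replicate 1, not of the tumors with the highest score. Of the 17 heat shock genes tested 15 had a change below 0, and the list's median was -0.12.

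Genes of cell division did not separate the sets. Of 34 tested genes of mitosis none passed an unadjusted p under 0.05 in either direction (median -0.011), and within cohort 2, where the low-muscle set is vehicle replicate 4 alone, 33 of the 34 were below 0 with a median of -0.36. Of 56 genes of the cytosolic ribosome none passed either (median -0.019, and 0.17 with cohort as a covariate). Among p53 and apoptosis genes, Gadd45b, a damage-inducible gene, and Mdm2, the ubiquitin ligase of p53, had changes of -0.78 and -0.69 (limma adjusted p of 0.0516 and 0.0524). Among markers of glial progenitors, the adhesion receptor Cd44 was at 1.07 to 1.64 in the high-muscle tumors and 1.77 to 2.00 in the low-muscle tumors (change -0.51, adjusted p = 0.0524), and Id1, an inhibitor of differentiation, had a change of 0.91 (adjusted p = 0.113).

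None of the genes that the study singled out for MNF was called. The study chose them on these tumors. For Ccnd1 it reported the protein, cyclin D1, in tumors and cultured cells, and not the RNA. Of 13 such genes 12 were tested, with changes of -0.24 to 0.69 and a median of 0.12, and 1 had an unadjusted p under 0.05. That gene was Mmp11, a metalloproteinase of stroma, at -1.60, -1.24 and -0.27 in the high-muscle tumors and at -1.79, -1.76 and -1.58 in the low-muscle tumors (change 0.69, limma adjusted p = 0.0637). Changes of the others were 0.28 for the membrane metalloproteinase Mmp14, 0.18 for the cyclin Ccnd1, 0.16 for the glycosyltransferase Galnt3 and 0.16 for the transcription factor Sox4. They were 0.13 for the glial factor Olig1, 0.10 for the spindle checkpoint kinase Bub1b, 0.019 for the cyclin Ccna2 and -0.023 for the phosphatase Cdkn3. The caspases Casp12, Casp1 and Casp4 (Casp11 in the study) had -0.039, -0.14 and -0.24. For these 11 genes the adjusted p was between 0.383 and 0.965 and the sets overlapped, and 9 of the 11 changed sign under at least 1 alternative setting. Other metalloproteinases ran the other way, with changes of -0.92 for Mmp10 and -0.62 for Mmp3 (adjusted p of 0.117 and 0.251).

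**Figure D5:**
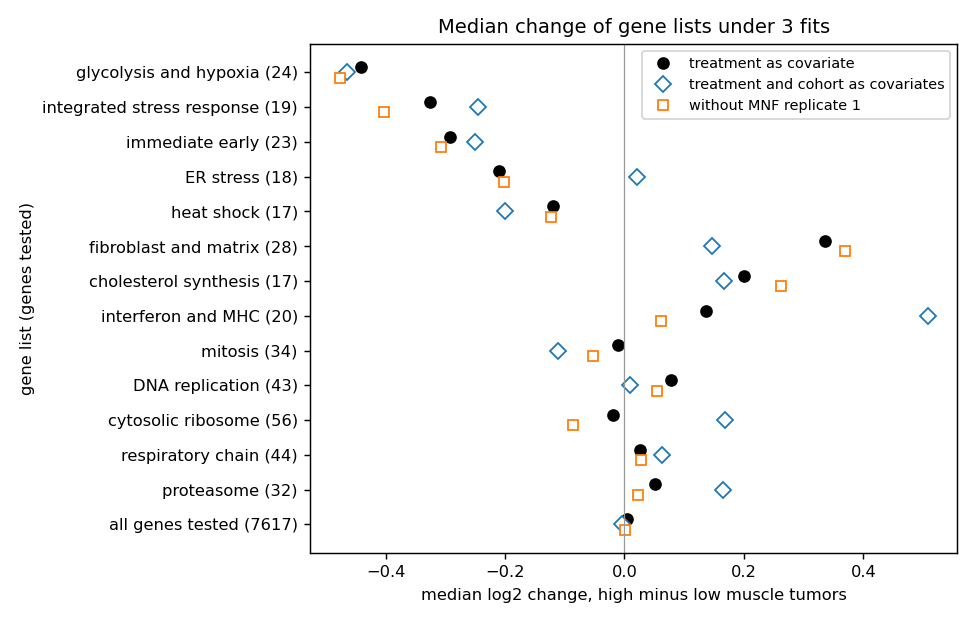
Median log2 change, high minus low, of 13 gene lists and of all genes tested (number of genes in parentheses), with treatment as covariate (black), with treatment and cohort as covariates (blue) and without MNF replicate 1 (orange). Glycolysis and hypoxia, the integrated stress response, immediate early, heat shock and mitosis genes lie below 0 in all 3 fits. With treatment as covariate heat shock is at -0.12 and mitosis at -0.011. ER stress and the cytosolic ribosome change side with cohort, as does the median of all genes, from 0.0042 to -0.0043.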

How the data were processed

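RNA of 12 C6 xenografts was measured on Illumina rat arrays. The authors deposited the signal intensity of each probe with its detection p-value, read with GenomeStudio 1.6.0 per the submitters' processing notes, and Z scores of log-transformed signals, which were used as an alternative. Each Z score was deposited for probes detected on at least 1 array.

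The members and gene lists were chosen with earlier results of these data known. Signals were put on the log2 scale, Z-normalized over the probes with a detection p under 0.02 on all 12 arrays and multiplied by the mean SD, and the brightest probe per gene was kept. Of 22517 probes 13259 had 1 gene symbol and 9258 had none. Set and treatment were fitted by limma (version 3.58.1, R 4.3.3), and p-values were adjusted over 7617 genes by the method of Benjamini and Hochberg. Exploratory fits on the real values were made before the steps were tested on simulated data. A permutation test of mean signal was planned and is not used, since the score subtracts the array's mean level. The sets were formed from values of the same arrays, so that p-values describe these sets and not an assigned condition. Each tumor counts as a replicate, and the number of arrays, 6 per set, limits the precision.

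The rule named the 12 genes of smallest p in each direction outside the muscle lists, up to 4 per list, the study's genes and the brightest muscle genes. It gave 139 genes. After their values were seen 64 of these were kept for the fits under alternatives, and of the 75 not kept 27 had an unadjusted p under 0.05. Esam, Cldn5 and Plvap are also named in the text, with their changes only, and were not among the 64. Alternatives were other normalizations, filters, covariates, scores and sets, and leaving out each array. Promoters were read from RefSeq (GRCr8). Protein sequences were not used here.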

Additional observations from a re-analysis of the deposited data

Results flagged for a closer look

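For 9 genes 1 tumor stood apart from the other 5 of its set, by Dixon's criterion for the gap to its nearest neighbor over the set's range. Chance flags about 1 in 20 sets, and 136 sets were examined. Among the high-muscle tumors, vehicle replicate 5 was highest for Id1, at 3.07 against 1.38 to 1.96 in the others, and for Mmp11, at -0.27 against -1.60 to -1.11, and for Ccna2, at 1.07 against 0.23 to 0.45. The same tumor was lowest for Casp4, at -1.13 against 0.25 to 0.60. MNF replicate 1 was highest for Mmp10, at -0.45 against -1.79 to -1.36. Among the low-muscle tumors, MNF replicate 2 was highest for P4ha1, at 3.29 against 2.62 to 2.84, and for Cd44, at 2.00 against 1.77 to 1.83, and lowest for Cdkn3, at 1.06 against 1.59 to 1.90. Vehicle replicate 1 was highest for Ptgfrn, at 0.19 against -0.32 to -0.18.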

How the results depend on the processing

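The 6 high-muscle tumors were the same with a score from other fast filament genes, after Z-normalization or after quantile normalization. All 26 called genes kept their direction under all 34 alternatives, leave-one-out fits included, but their adjusted p did not keep its side of the threshold. The calls, given as higher and lower in the high-muscle tumors against 4 and 22 in the fit reported, were 1 and 55 with array mean centring over all probes, 12 and 42 with quantile normalization, 12 and 50 with an offset of 50, 22 and 55 with probes detected on all 6 arrays of either set, 32 and 61 with no filter, 179 and 307 with array quality weights, and 8 and 30 with the score as a continuous covariate. They were 0 and 0 with cohort as a second covariate, in the MNF-treated tumors alone (194 and 358 at an unadjusted limma p under 0.05) and in the vehicle-treated tumors alone (313 and 343). They were 0 and 1 with the 4 highest against the 4 lowest tumors, 61 and 4 in cohort 1 alone and 1 and 0 in cohort 2 alone. Leaving out 1 array at a time gave 0 to 32 higher and 0 to 89 lower. Array mean centring moved the share of lower calls to 98.2%, and to 78.4% at an unadjusted p under 0.05, with a median change of all genes of -0.039. Under the 5 other scalings 77.8% to 90.3% of the calls were lower, against 84.6% in the fit reported.

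With the replicate number as a block the calls were 0 and 0 (163 and 182 at an unadjusted limma p under 0.05). This block also adjusts for cohort, since each number lay within 1 cohort. Tumors of the same number deviated together at r of -0.43 to 0.41 over the 6 pairs, with no common sign. The labels give no pairing, and 6 pairs cannot settle whether there was one.

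Of 65 genes followed under 34 alternatives, 51 values changed sign, and 11 genes were concerned, all but Thbs4 and Ramp2 among the study's genes. Under a fit of cohort 1 alone the change was -0.0406 for Thbs4, -0.12 for Ramp2, -0.15 for Mmp14, 0.12 for Cdkn3, -0.0209 for Olig1, 0.49 for Casp1, 0.26 for Casp4, 0.11 for Casp12. Under a fit of the MNF-treated tumors alone the change was -0.0766 for Mmp14, -0.0553 for Ccna2, 0.0252 for Cdkn3, 0.27 for Casp1, 0.17 for Casp4, 0.19 for Casp12. Under a fit with no covariate the change was -0.0367 for Galnt3, -0.0882 for Ccna2, -0.0152 for Bub1b, -0.13 for Olig1, 0.079 for Casp12. Under array mean centring over all probes the change was -0.0348 for Ccna2. Under median centring the change was -0.00813 for Ccna2. Under the fit with treatment and cohort the change was -0.14 for Ccna2, -0.087 for Olig1, 0.21 for Casp1, 0.24 for Casp4, 0.30 for Casp12. Under the replicate block the change was -0.14 for Ccna2, -0.0539 for Olig1. Under array quality weights the change was -0.0692 for Ccna2, -0.00331 for Bub1b. Under the score as a continuous covariate, per unit of score, the change was -0.0017 for Ccna2, 0.000229 for Cdkn3, 0.00269 for Casp12. Under a fit of cohort 2 alone the change was -0.31 for Ccna2, -0.13 for Bub1b, -0.15 for Olig1, 0.21 for Casp4, 0.49 for Casp12. Under a fit of the 4 highest against the 4 lowest tumors the change was 0.17 for Cdkn3, -0.0552 for Olig1. Under a fit of the vehicle-treated tumors alone the change was -0.0117 for Bub1b. Leaving out 1 array at a time gave changes of -0.12 to 0.12 for Ccna2, -0.13 to 0.0644 for Cdkn3, -0.0835 to 0.40 for Olig1, -0.26 to 0.0136 for Casp1, -0.45 to 0.13 for Casp4, -0.15 to 0.16 for Casp12. The difference in mean signal, a description, ran from -183 (without MNF replicate 6) to -109 when 1 array was left out, and that in probes detected from 24.8 to 191. The interaction of set with treatment called 0 genes under every alternative run (limma, 200 genes at an unadjusted p under 0.05 in the fit reported). The cause of the lost calls was not tested.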
